A study of Bos taurus with 4 samples.

Results

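The metallothioneins were examined in the semitendinosus muscle, a muscle of the hind leg, of 15-month-old bulls. The 4 genes MT2A, MT1A, MT1E and MT3 were looked up on the microarray through the RefSeq accession of each bovine probe. They were selected on the log2 ratios of these same arrays, among which MT2A stood out, so their ratios are given here as a description with no test. Of the 4 genes, 2 were matched by a probe, MT2A and MT3, each with 1 probe spotted at 2 places per array, out of 21475 probes in all. Both probes were among the 15856 that passed the filter on dim signals, that is, were well above background in the same colour on at least 3 arrays. No probe was matched to MT1A. The name MT1E is listed in the gene table only as a synonym of 3 genes (MT1A, LOC768319 and LOC613358), and none of them was matched by a probe, so MT1A and MT1E were not analysed here.

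Each of 4 two-colour arrays carried RNA of 1 Limousin bull (LIM, a beef breed), labelled with the red dye Cy5, and RNA of 1 Holstein-Friesian bull (HF, a dairy breed, used as the control), labelled with the green dye Cy3. All 8 bulls were of the same age, none was described as treated, and the samples were whole muscle, so that fewer cells of a type and less RNA per cell cannot be told apart. There was no dye swap, and therefore breed and dye cannot be told apart either. All ratios are of red over green, that is LIM over HF by the labels, and for every gene with a kept probe whose direction the opening of the study's text names, myostatin, follistatin and TRIM63 among them, the ratio computed this way ran in the opposite direction to that text. The study also reports the direction of its text by quantitative PCR for the genes it checked, myostatin and follistatin among them. By Western blot it reports less myostatin protein in Limousin than in Holstein-Friesian muscle. If the dyes had been used the other way round, every ratio below would keep its size and change its sign.

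Metallothioneins are small, cysteine-rich proteins that bind zinc and copper and that also take up toxic metals such as cadmium. Their genes lie in 1 cluster and are switched on by the metal-sensing transcription factor MTF1 when free zinc rises, and by glucocorticoids, inflammatory cytokines and oxidative stress. MT1 and MT2 forms are made in most tissues and are known from rodents to rise in wasting muscle, whereas MT3 is best known from the brain of humans and rodents, where it was found as an inhibitor of neuronal growth. In the gene table the bovine cluster consisted of 6 genes in a row, in the order MT1A, LOC768319, LOC613358, MT2A, MT3 and MT4. MT4, known from mouse stratified epithelia, had no matched probe and was not analysed here. Members of the family are alike in sequence, a probe for one may also bind the transcripts of another, and the part of such binding in the values of the MT2A and MT3 probes was not tested.

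MT2A, the widely expressed metallothionein of the pair, was bright in every LIM bull. Its normalized log2 intensity was 13.35, 12.36, 12.87 and 12.99 in the LIM bulls of arrays 1 to 4, against 9.84, 9.55, 10.35 and 9.54 in the HF bulls. The levels averaged 12.89 ± 0.41 in LIM and 9.82 ± 0.38 in HF (SD, n = 4 each). The groups did not overlap, and the lowest LIM bull, on array 2, was still 4.04-fold above the highest HF bull, on array 3. Within a breed the spread was smaller, with the highest bull 1.98-fold above the lowest among LIM and 1.74-fold among HF bulls. Non-overlapping levels were found for 2668 of 15856 probes (16.8%), and as the breed contrast was used to choose MT2A, nothing is read from its place among them.

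**Figure D1:**
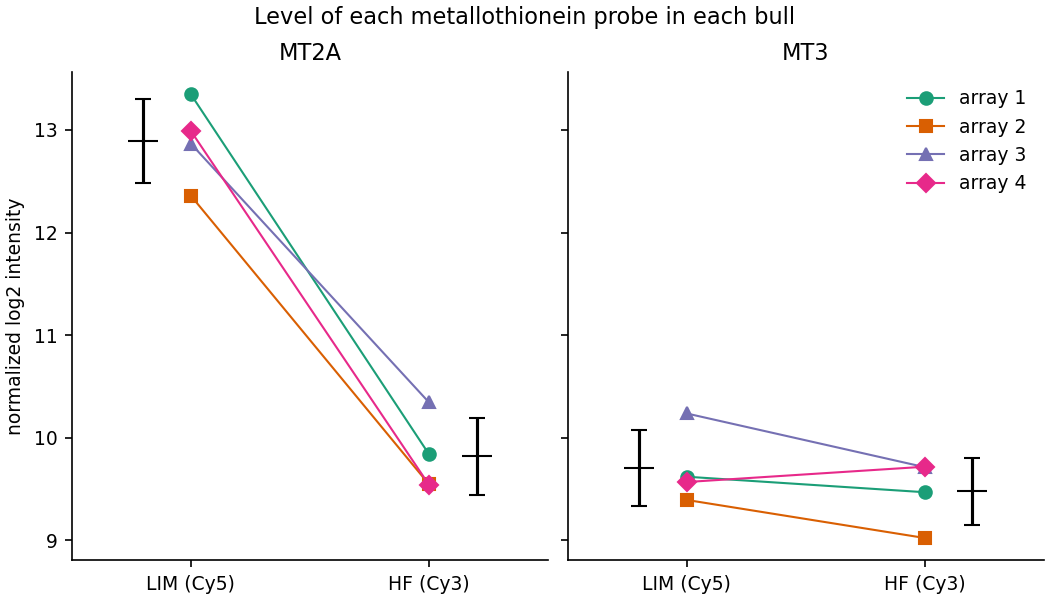
Normalized log2 intensity (vertical axis) of the MT2A probe (left panel) and the MT3 probe (right panel) in the LIM bulls, labelled with Cy5, and the HF bulls, labelled with Cy3. Symbols joined by a line are the 2 bulls of 1 array, and the black bars are the mean ± SD of the 4 bulls of a breed; for MT2A the LIM bulls averaged 12.89 and the HF bulls 9.82 with no overlap, whereas for MT3 they averaged 9.71 and 9.48 and overlapped.

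MT2A was thus several-fold brighter in LIM than in HF on each array. The log2 ratio was 3.51, 2.81, 2.52 and 3.45 on arrays 1 to 4, or 11.4-fold, 7.02-fold, 5.74-fold and 10.9-fold. The mean was 3.07 ± 0.19 (moderated SE, n = 4), with an SD of 0.48 between arrays, which corresponds to 8.40-fold. The spread of this probe between arrays was wide for the array set, where the median SD over all probes was 0.19, but the smallest of its 4 ratios was still 2.52. Array 3, with the smallest ratio, was the one that held the brightest HF bull. Ranked by the mean ratio, the probe lay 1st from the top of 15856, and on the single arrays it ranked 2, 3, 8 and 1. With scanner-processed signals its mean ranked 6, and with an offset of 0, with no background correction or without array 4 it ranked 2.

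The signals behind the MT2A ratios were far from the background of the scanner. Before any correction, the paired spots of the probe read 13127.5 and 18774 in red on array 1, 7163 and 9648 on array 2, 12630 and 16396 on array 3, and 12606 and 15739.5 on array 4. In green, the HF channel, they read 523.5 and 702 on array 1, 368 and 479 on array 2, 541 and 648 on array 3, and 413 and 498.5 on array 4. The red signal was 193.6 to 482.2 times the local background and the green signal 12.69 to 27 times, and no spot of the probe was saturated or removed. The spots of a pair differed in brightness but hardly in ratio. After loess, their log2 ratios were 3.44 and 3.57 on array 1, 2.79 and 2.84 on array 2, 2.47 and 2.57 on array 3, and 3.42 and 3.47 on array 4. Averaged over the arrays, the first spot gave 3.03 and the second 3.11, so that MT2A varied more between arrays than between spots.

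MT3, the form best known from brain, was measurable in the muscle of both breeds, at levels that overlapped. Its normalized log2 intensity was 9.62, 9.39, 10.24 and 9.57 in the LIM bulls of arrays 1 to 4, against 9.47, 9.02, 9.71 and 9.72 in the HF bulls. The means were 9.71 ± 0.37 in LIM and 9.48 ± 0.33 in HF (SD, n = 4 each). The groups overlapped, since the lowest LIM bull was at 9.39 and the highest HF bull at 9.72. The log2 ratio was 0.15, 0.37 and 0.52 on arrays 1 to 3 and -0.15 on array 4. The mean was 0.22 ± 0.12 (moderated SE, n = 4; SD 0.29), or 1.17-fold, and 3 of the 4 arrays had a ratio above 0. The MT3 probe ranked 2803 of 15856 by its mean, and between 1218 and 11779 on the single arrays. Its mean ranked 5136 with scanner-processed signals, 4328 with an offset of 0, 1624 without array 4 and 4598 without array 3.

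The uncorrected MT3 signals were also well above background in both colours. In red, its paired spots read 1188 and 1069 on array 1, 1118 and 900 on array 2, 2484.5 and 1937 on array 3, and 1302 and 1201.5 on array 4. In green they read 470 and 452, 333 and 267, 461 and 347.5, and 536.5 and 500.5 on the same arrays. The red signal was 22.5 to 70.99 times the local background and the green signal 9.207 to 18.5 times. The LIM bull of array 3 and the HF bull of array 4 were the highest of their breeds for MT3, and neither of them was the highest of its breed for MT2A. Averaged over the arrays, the first spot of MT3 gave a log2 ratio of 0.23 and the second 0.22.

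The neighbouring genes of the cluster thus had unlike ratios on the same arrays. The log2 ratio of MT2A exceeded that of MT3 by 3.35, 2.44, 2.00 and 3.60 on arrays 1 to 4, a mean difference of 2.85 with an SD of 0.75. The difference was above 0 on all 4 arrays, and it was smallest on array 3, where MT2A had its lowest and MT3 its highest ratio. Of the 2 metallothionein probes, 1 (MT2A) was among the 470 probes called higher in LIM (2.96% of 15856; limma with Benjamini-Hochberg adjustment, threshold 0.05), and MT3 was not. In either direction 868 probes (5.47%) were called. This count and the difference between MT2A and MT3 describe genes that were chosen with these results known. Neither is evidence about the family.

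**Figure D2:**
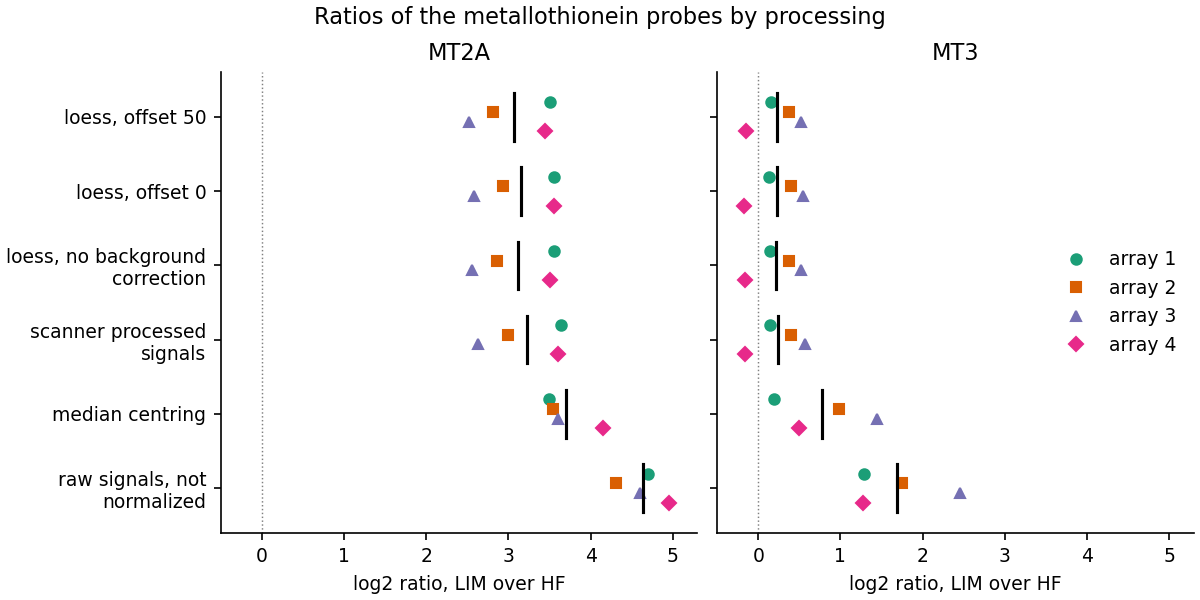
Log2 ratio of LIM over HF (horizontal axis) of the MT2A probe (left) and the MT3 probe (right) on arrays 1 to 4 (symbols) under 6 ways of processing the signals; the black bar is the mean of the 4 arrays. MT2A stays between 2.52 and 4.96 on every array under all 6, while MT3 lies on both sides of 0 under the first 4 and above 0 on all arrays with median centring and with raw signals.

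The red channel was brighter than the green one for most probes, and how this was levelled out moved both ratios. Before normalization, the median log2 ratio of all kept probes was 0.88, 1.17, 1.57 and 1.21 on arrays 1 to 4, and the raw signals of MT2A gave a mean ratio of 4.64 (4.31 to 4.96). Loess, which levels the colours at each intensity, brought MT2A to 3.07. Centring each array on the median of all its spots other than controls gave 3.70 (3.49 to 4.15), with an SD of 0.30 in place of 0.48. This left the median of the kept probes at 0.25, so that MT2A stood 3.44 above that median. The MT3 ratio was 0.22 with loess, 0.78 with median centring (0.19 to 1.45), which is 0.52 above the median of the kept probes, and 1.69 with raw signals (1.27 to 2.45). Under the settings with loess, MT2A gave 3.12 without background correction, 3.15 with an offset of 0 and 3.12 with scale normalization, and the signals that the scanner software had processed gave 3.22. MT3 gave 0.22, 0.23, 0.22 and 0.24 under the same settings. Leaving out each array in turn kept MT2A between 2.93 and 3.25, and MT3 between 0.12 and 0.35.

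The genes whose 4 ratios were most like those of MT2A were then looked up. Likeness was taken as the Euclidean distance between the per-array log2 ratios of a gene and those of MT2A, over 4 arrays and 6376 named genes. MT2A ranked 1st of these genes by mean ratio, so the genes nearest to it are drawn from those with high ratios. The list is a description only. The nearest were METTL21E, a lysine methyltransferase of skeletal muscle (distance 2.84, mean ratio 2.02), COL3A1, the chain of type III collagen (2.89, mean 2.53), and UCP3, a mitochondrial carrier of skeletal muscle (2.95, mean 1.67). SMTNL2, a smoothelin-like protein (3.06, mean 1.56), and PVALB, the calcium buffer parvalbumin of fast fibres (3.18, mean 1.90), followed. After loess, SMTNL2 had the same order of arrays as MT2A, with 2.17, 1.43, 1.21 and 1.46 on arrays 1 to 4, though arrays 2 and 4 were nearly equal. UCP3 was also highest on array 1 (1.85). With median centring the order of MT2A itself was another, with 3.49, 3.55, 3.60 and 4.15 on arrays 1 to 4. METTL21E, COL3A1 and PVALB had their highest ratio on array 3 (2.85, 4.23 and 2.95), where MT2A had its lowest after loess. With median centring, where MT2A also ranked 1st, the nearest 5 were the same 5 genes, which is no separate support for the list.

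**Figure D3:**
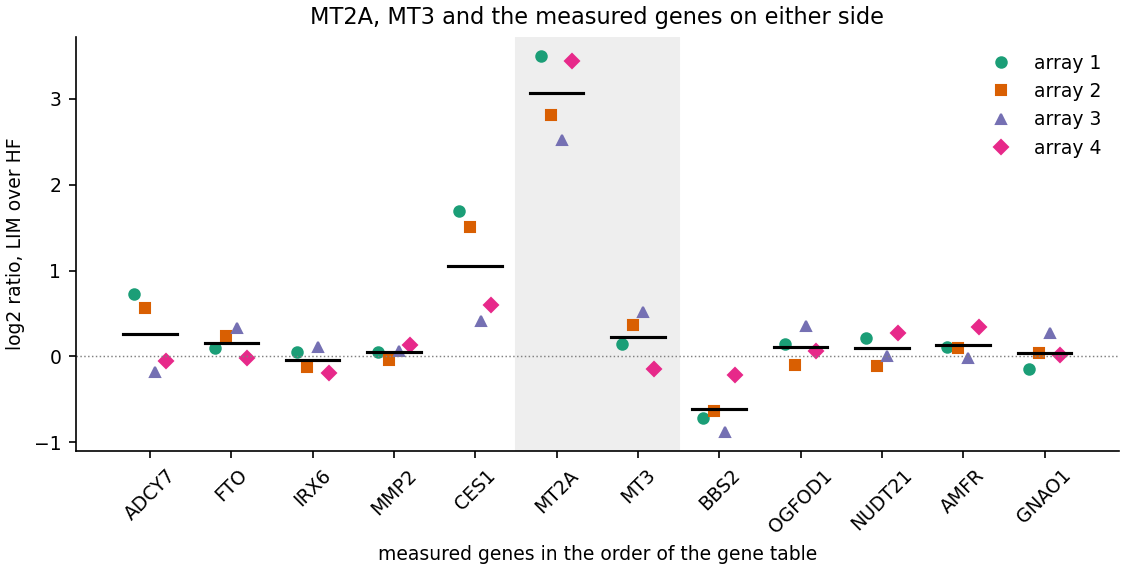
Log2 ratio of LIM over HF (vertical axis) on arrays 1 to 4 (symbols), with the mean as a black bar, for MT2A and MT3 (shaded) and the 5 measured genes on each side of them, in the order of the gene table. MT2A has a mean of 3.07, the next highest is CES1 at 1.05, and the lowest is BBS2 at -0.61.

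The measured genes on either side of the metallothionein cluster were described next. The 5 nearest named genes with a kept probe on each side were taken by their place in the gene table, after the probes had been seen. None of these 10 genes passed the limma test, where 378 of 6376 named genes (5.93%) did. CES1, a carboxylesterase that lies 2 genes before the cluster, had a log2 ratio of 1.05 ± 0.25 (adjusted p = 0.0737), with 1.69, 1.51, 0.41 and 0.60 on arrays 1 to 4. BBS2, a subunit of a ciliary transport complex and the gene directly after the cluster, had -0.61 ± 0.12 (adjusted p = 0.0542), with -0.72, -0.63, -0.88 and -0.22. The other 8 lay between -0.037 for IRX6, a homeobox factor, and 0.26 for ADCY7, an adenylyl cyclase. Apart from CES1, the genes before the cluster were not close to it: MMP2, IRX6, FTO and ADCY7 lay 13, 16, 30 and 60 genes away, whereas those after it lay within 6 genes.

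Genes that sense, move or store metals were next counted, as metallothionein genes are known to respond to zinc. In the list of metal sensing and zinc transport, 11 of 25 genes had a matched probe, 9 passed the filter and were measured, and 0 passed the limma test in either direction (0 also at an unadjusted p under 0.05). Their median log2 ratio was 0.087, against a median of 0.0029 over all named genes. Of the 9 ratios, 7 lay above and 2 below 0, in a range of -0.36 to 0.15. The median and the 7 include SLC39A4, the top of that range, which passed the filter through LIM alone. MTF1, the transcription factor that turns on metallothionein genes, had a ratio of 0.023 ± 0.067 (adjusted p = 0.855) and values of 0.051, -0.061, 0.15 and -0.052 on arrays 1 to 4. SLC39A4, a zinc importer best known from the gut, had 0.15 ± 0.06 (adjusted p = 0.201), but it was not well above background in HF on any array, so that only a bound of at least 1.08-fold is given (log2 levels 6.43 in LIM and 6.29 in HF). With scanner-processed signals its ratio was 0.75 (adjusted p = 0.051), and with median centring -0.14. SLC30A3, known from neurons for loading zinc into vesicles, had -0.36 ± 0.22 (adjusted p = 0.354). SLC30A1, the zinc exporter that MTF1 also turns on, had no matched probe past the filter and was not analysed here. Median centring gave 3 calls in this list, all higher in LIM. In that setting 3800 of all 15856 kept probes were called, 3525 of them higher and 275 lower. No result about a list is read from its counts in that setting.

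Copper and iron genes were counted in the same way. For copper handling, 5 of 14 genes were measured and 0 passed (0 also at an unadjusted p under 0.05), with a median of -0.11 and a range of -0.32 to 0.17. COX11, which hands copper to cytochrome c oxidase, had 0.15 ± 0.08 (adjusted p = 0.267), and SCO1, a copper chaperone of the same enzyme, -0.18 ± 0.09 (adjusted p = 0.274). Median centring gave 2 calls in the copper list, both higher, in a setting where 3525 of all 15856 kept probes were called higher. For iron handling, 9 of 12 genes were measured, none passed as higher and 1 as lower, with a median of 0.19. The gene that fell was FBXL5, the iron-sensing subunit of a ubiquitin ligase, with -0.36 ± 0.06 (adjusted p = 0.0445), although with median centring its ratio was 0.25 and the list had 3 calls, all higher. FTH1 and FTL, the ferritin subunits that store iron, had ratios of 0.16 ± 0.13 (adjusted p = 0.487) and 0.56 ± 0.26 (adjusted p = 0.239). These 2 ferritin genes were named after their values had been seen.

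**Figure D4:**
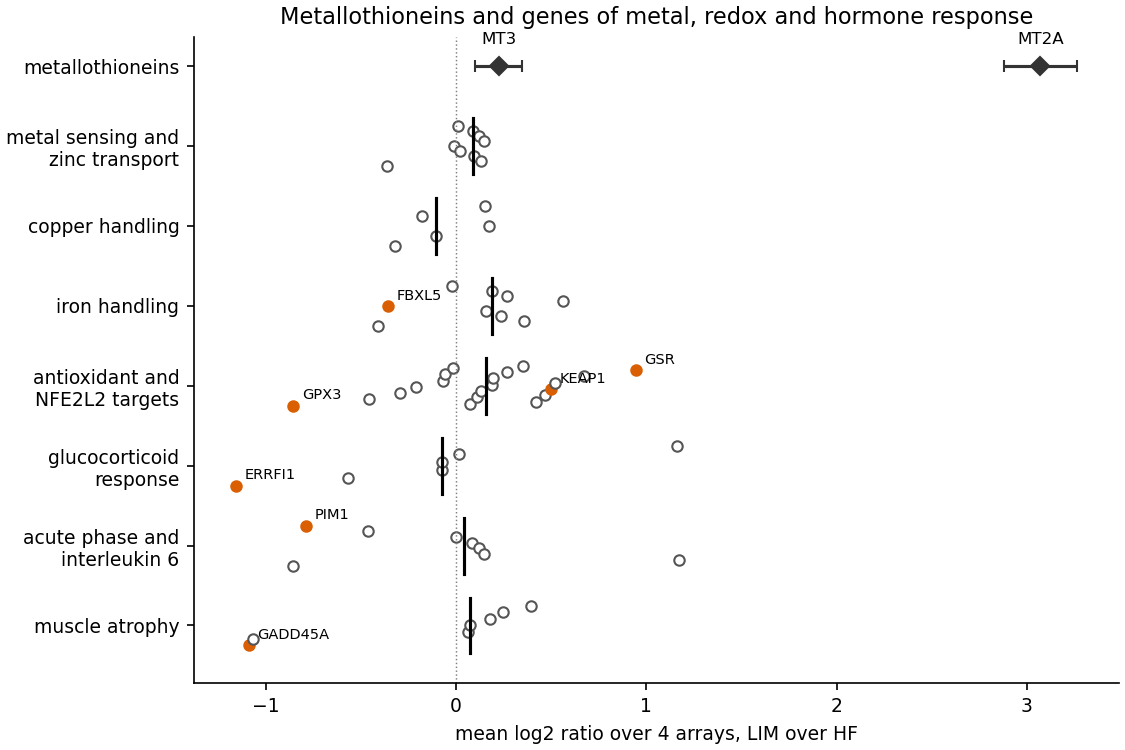
Mean log2 ratio of LIM over HF over 4 arrays (horizontal axis) of MT2A and MT3 (diamonds with the moderated SE) and of each measured gene of the pathway lists (circles; filled where the adjusted p in limma was under 0.05), with the median of each list as a vertical bar. MT2A lies at 3.07, and the plotted list genes lie between -1.16 and 1.17. For 5 of them, not well above background in HF on any array, the plotted fitted ratio rests on an HF signal near background.

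Antioxidant genes are another group that answers to the stresses known to raise metallothioneins. Of 26 genes of glutathione, thioredoxin and NFE2L2-driven defence, 20 were measured, 2 rose, 1 fell and 17 did not pass, with a median of 0.16. GSR, the reductase that restores glutathione, rose by 0.95 ± 0.16 on the log2 scale (adjusted p = 0.0432), with 0.81, 0.55 and 0.93 on arrays 2 to 4 and its highest ratio on array 1. KEAP1, the protein that marks NFE2L2 for degradation and so holds this defence down, rose by 0.50 ± 0.07 (adjusted p = 0.0351). That value is of its brighter probe, and the mean of its 2 kept probes gave 0.45 and no call in limma (adjusted p = 0.0598). GPX3, the glutathione peroxidase of extracellular fluid, had -0.85 ± 0.08 (adjusted p = 0.021) and was the gene that fell. With median centring the list had 10 genes called higher and 0 lower, and GPX3 lost its call (-0.43, adjusted p = 0.0537). Of all 15856 kept probes, that setting called 3525 higher and 275 lower. NFE2L2 itself had 0.073 ± 0.21 (adjusted p = 0.858), and HMOX1, the haem-degrading enzyme that is a classic stress-induced gene, had 0.27 ± 0.45 (adjusted p = 0.742) with ratios from 1.27 on array 1 to -1.23 on array 3. NFE2L2 and HMOX1 were named after their values had been seen. In contrast to MT2A, HMOX1 changed sign between the arrays.

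Hormone and cytokine responses were described in the same way. Of 17 glucocorticoid-responsive genes, 6 were measured, 0 rose and 1 fell, with a median of -0.076. The gene that fell was ERRFI1, an inhibitor of the EGF receptor, with -1.16 ± 0.09 (adjusted p = 0.0187). FKBP5, a chaperone partner of the glucocorticoid receptor and a usual marker of its activity, had 0.014 ± 0.35 (adjusted p = 0.983) and was named after its value had been seen. Its ratios had both signs, with -0.76, -0.78, 0.92 and 0.67 on arrays 1 to 4. The ratios of the list ran from -1.16 for ERRFI1 to 1.16 for ANGPTL4 (adjusted p = 0.22). Of 17 genes of the acute phase and interleukin 6 response, 8 were measured, 0 rose and 1 fell, PIM1, a kinase, with -0.79 ± 0.13 (adjusted p = 0.04), and the median was 0.042. That median includes SAA3, ORM1 and FGA (1.17, 0.12 and 0.082), which passed the filter through LIM alone. The other 5 measured genes had ratios of 0.0013 (IL6R), 0.15 (LBP), -0.47 (STAT3), -0.79 (PIM1) and -0.86 (JUNB). Of 12 muscle atrophy genes, 7 were measured and 1 fell, GADD45A, a stress-response gene, with -1.09 ± 0.20 (adjusted p = 0.0474), and the median was 0.073. In this list CTSL (0.18) passed the filter through LIM alone. With median centring the atrophy list had 4 genes called higher and 0 lower, and GADD45A lost its call (-0.46, adjusted p = 0.0913). In the glucocorticoid and the acute phase list the same setting gave 1 call in each direction. Of all 15856 kept probes, it called 3525 higher and 275 lower. TRIM63, the muscle ubiquitin ligase that is a usual marker of atrophy, had -1.07 ± 0.23 (adjusted p = 0.0625), opposite to the direction in the study's text, and was also named after its value had been seen.

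Over all these lists, 62 of 118 genes were measured, and 2 rose, 5 fell and 55 did not pass. The share of calls was thus 11.3% of the measured genes, against 5.93% of all named genes, and the lists were put together with earlier results of these data known. All 7 calls were lost when any 1 of the 4 arrays was left out. With median centring, 23 of the list genes were called higher and 2 lower, against 3525 and 275 of all 15856 kept probes. Of the measured genes, 5 (SLC39A4, SAA3, FGA, ORM1 and CTSL) were not well above background in HF on any array, so that their fitted ratios rest on HF signals near background. A bound was worked out for SLC39A4 only.

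The tissue and its other cell types were checked by their markers. Of all 6376 named genes, 378 (5.93%) were called in either direction, and the calls in these short lists are a description only. Of 15 skeletal muscle genes, 11 were measured, and all 11 were well above background in both colours on every array. Their median ratio was 0.076 and 2 were called higher, the oxygen store MB (1.02 ± 0.15, adjusted p = 0.0326) and the fast troponin TNNC2 (0.68 ± 0.12, adjusted p = 0.0453). Of the 11 ratios, 6 lay above and 5 below 0. Those below were MYH7 (-1.06, adjusted p = 0.116), TNNT1 (-0.87), MYH2 (-0.51), DES (-0.38) and MYH1 (-0.044). Fibroblast genes were the marker list with the largest median: 6 of 6 were measured, the median ratio was 0.90 with 4 genes above and 2 below 0 (DCN at -0.23 and PDGFRA at -0.27), 1 (COL3A1) passed the test, and their summed log2 level was 14.47 to 15.39 in LIM bulls and 13.48 to 14.58 in HF bulls. COL3A1 was highest on array 3 (4.23), where MT2A had its smallest ratio after loess (with median centring array 1 had the smallest, 3.49, and with raw signals array 2, 4.31), and the part of connective tissue in the MT2A values was not tested. The medians were -0.49 for macrophage genes (3 measured, 0 called), -0.55 for mast cell and neutrophil genes (5 measured, 1 lower), 0.13 for adipocyte genes (4 measured, 1 lower), -0.22 for endothelial genes (3 measured, 0 called), -0.19 for smooth muscle genes (5 measured, 1 lower), -0.31 for nerve and glia genes (2 measured, 0 called) and -0.092 for erythrocyte genes (3 measured, 0 called). The erythrocyte median includes HBB (-0.15), which passed the filter through LIM alone. Apart from fibroblasts, the medians of the marker lists thus lay between -0.55 and 0.13.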

How the data were processed

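RNA of 4 LIM and 4 HF bulls was hybridised pairwise to 4 Agilent two-colour bovine arrays. The deposited intensity values were median foreground and background signals of each spot, not normalized, together with the scanner software's processed signals, corrected for background and dye. The deposited log10 ratios were red over green of those processed signals. The value table of the series was identical to them (largest difference 0, medians 0 on every array, and 5507 to 6743 values per array at exactly 0). The deposited spot flags were used to remove non-uniform spots (5 to 10 per array). Signals were background-corrected by normexp (offset 50), which shrinks the ratios of dim probes, normalized by loess within arrays with control spots at weight 0, averaged over spots, and kept where 1 channel was well above background on 3 arrays or more. The levels of a single channel were taken after loess and Aquantile.

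A two-sided test of the log2 ratio against 0 was made in limma 3.58.1 (R 4.3.3), and p-values were adjusted over 15856 probes by Benjamini-Hochberg. At an unadjusted p under 0.05 there were 4326 probes. The script was tested on simulated data. Across probes, which are no independent replicates, the ratios of any pair of arrays had a Pearson's r of 0.40 to 0.60. Of the bovine spots, 32513 to 33527 were well above background in LIM and 27102 to 28769 in HF, no spot was saturated, and precision is limited by the number of arrays. The labels call the arrays biological replicates, each with its own pair of bulls. All lay on 1 slide and had 1 scan, so that neither could serve as a block.

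Probes were named by accession through a RefSeq gene table of another assembly than the array design, used for names and gene order only (8297 of 21475 probes). A gene was represented by its brightest kept probe. The files hold neither gene names nor probe sequences, so metallothionein probes without a matched accession could not be looked for by name, and no sequence is shown. The members, lists and tests were chosen with earlier results of these data known. Named were all metallothionein probes; per list up to 4 genes with the largest ratios past the test, or else the 2 with the smallest unadjusted p; MTF1 and SLC30A1; and the 5 genes nearest MT2A. Alternatives were the background correction, offset, processed signals, median centring, scale normalization, filter, intensity trend with robust prior, array weights, an unpaired fit, the methods' t-test, the value table, the mean of a gene's probes and leaving out each array. Raw signals, single spots and removal of further outlier spots were added after seeing the data.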

Additional observations from a re-analysis of the deposited data

Results flagged for a closer look

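In COL3A1, one of the 5 genes nearest MT2A, array 3 stood far from the others: its log2 ratio of LIM over HF was 4.23, against 1.75, 2.00 and 2.14 on the other arrays, so that the gap took 0.844 of the whole range. Of 33 values checked in this way it was the only one past the limit, where chance gives 1.65. The ratios of MT2A and MT3 held no such array.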

How the results depend on the processing

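The ratio of MT2A stayed above that of MT3, and both means stayed above 0, under every alternative run. MT2A was chosen for its ratio on these arrays, so its place above MT3 is a description only. With median centring MT2A was 3.70 and MT3 0.78, and with raw signals 4.64 and 1.69; leaving out each array gave 2.93 to 3.25 and 0.12 to 0.35. The 868 probes called (470 higher, 398 lower) became 1336 (806 and 530) with processed signals, 1339 with the value table, 3800 (3525 and 275) with median centring, 1310 with an intensity trend and robust prior, 1479 by the methods' t-test at the thresholds stated there, 1 by that test after Benjamini-Hochberg adjustment, and 0 to 51 with an array left out, where 3 arrays remain. The other alternatives gave 647 to 1131. The 7 calls in the pathway lists became 25 (23 higher, 2 lower) with median centring, 4 with no filter, 0 by the adjusted t-test and 0 to 0 with an array left out; processed signals, the trend with robust prior, the unadjusted t-test, the unpaired fit and the mean of a gene's probes gave 6 to 8, and the remaining settings were not run for the lists. With no replicate block, that is with the channels fitted unpaired, 1091 probes and 6 list genes were called, MT2A was 3.07 and MT3 0.22. Leaving out an array lowers the number of arrays; the other causes were not tested. Of the single list genes, MTF1 was -0.0068 with processed signals and -0.020 to 0.051 with an array left out (lowest without array 3), and with median centring SLC39A4 was -0.14, SCO1 0.39 and FBXL5 0.25. Over the alternatives run for them (processed signals, median centring, no filter, trend with robust prior, unpaired fit, t-test, mean of probes and arrays left out), the named list genes kept direction and call in 92 cases, lost the call in 46, changed sign in 5 and gained a call in 1 (COX11, 0.73 with median centring, adjusted p = 0.0477). The 92 cases include genes without a call that stayed without one. All 46 losses fell on the 7 called genes. Of 12 alternatives, ERRFI1 kept direction and call in 7, GPX3, GSR and PIM1 in 6 each, GADD45A in 5, KEAP1 in 4 and FBXL5 in 3. Of the 25 zinc genes, 11 had a matched probe and 9 were bright enough to be measured.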
